A study of Mus musculus with 18 samples.

Results

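The regions described here are the peaks of N6-methyladenosine sequencing (m6A-seq) that lie around the stop codons of mouse mRNAs, called stop peaks below. m6A-seq enriches RNA fragments with an antibody against the modified base m6A, and a peak is a stretch of genome where enriched fragments pile up. A peak was taken when its centre lay within 200 nt of the stop codon along the spliced canonical mRNA of its gene, and peaks within 200 nt of the transcript start were left out. By this rule 20459 of the 102130 peaks listed for 7 libraries were stop peaks, and 87439 of the 102130 were centred in some canonical mRNA. The rule used position only, so the share of peaks it takes in is a description, while widths, sequence and recurrence between libraries were not used by it.

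The libraries came from 3 kinds of culture. All are labelled strain C57BL/6. The 3 embryoid body (EB) libraries, named A, B and C, came from aggregates of BVSC cells grown for 8 to 21 days without attachment in serum-containing fibroblast medium. The single Mettl3 knockout (KO) library came from embryonic stem cells labelled Mettl3-KO and described as a negative control, with no clone or line stated. The 3 embryonic stem cell (ESC) libraries, A, B and C, came from the BVSC line, kept in serum-free N2B27 medium with LIF and the kinase inhibitors CHIR99021 and PD0325901 (2i). The series text calls the EB and ESC replicates biological. EBs are mixed tissues, and nothing in the labels gives their day for a library. The authors' final list for mouse embryonic fibroblasts (MEFs) from E13.5 embryos is described once, apart from the comparisons. Single-library peaks of MEFs and all input libraries were not analysed here.

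As background, m6A is written on nuclear RNA by a complex in which Mettl3 is the catalytic subunit and Mettl14 its partner, at short motifs around a GGAC core. Reader proteins of the YTH family bind it and, in the cytoplasm, mostly shorten the life of the transcript. Across mammalian mRNAs the mark is known to gather in long exons and around stop codons, where the last coding stretch and the start of the 3′ UTR usually share the last exon. In pluripotent cells it marks transcripts of pluripotency factors.

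The following 28-nt stretches are shown because each carries the GGAC nearest to the centre of a stop peak described below. Capitals mark that GGAC, U is written as T, and all read 5′ to 3′ on the mRNA strand in the GENCODE transcripts of GRCm38 (mm10). The opening 5 belong to genes with a stop peak in all 6 EB and ESC libraries.
Sox2: cggggacctccgGGACatgatcagcatg
Nanog: taacttcggggaGGACtttctgcagcct
Klf2: taggacagagccGGACaagtgtggccac
Cpsf2: ccattgtgtaaaGGACatgatgtcaaga
Kmt2a: gatggagaaccaGGACccagggccaccc
The next 3 belong to genes whose stop peaks were found in EB A, B and C but in none of the ESC lists.
Rasd1: cagccaggctaaGGACaaggagcgctgt
Arhgap6: agccagcgagcaGGACaaacagaactta
Ring1: ttagtctatattGGACagcacgggccct
The next 3 belong to genes whose stop peaks were found in ESC A, B and C but in none of the EB lists.
Efr3a: agcattttaaaaGGACcttaaagcctgc
Insig1: aaatggaggcaaGGACtgcttacctaaa
Adamts5: gctggcacactaGGACcgtgcagtgcca
The last, from a collagen gene, is the GGAC nearest to the centre of the EB B stop peak. The gene also had 1 of the 17 stop peaks of the KO library, farther 3′ and not over this stretch.
Col5a1: acggcccatcccGGACagtgaacatttc

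Distances below are in nt along the spliced mRNA from the first base of the stop codon, negative on the coding side and positive on the 3′ UTR side. The Sox2 stretch lay at chr3:34651222-34651249 on the plus strand, in coding sequence with its GGAC at -139 nt. The Nanog stretch lay at chr6:122713384-122713411 on the plus strand, also coding, at -157 nt. The Klf2 stretch lay at chr8:72321013-72321040 on the plus strand, in the 3′ UTR at 108 nt. The Cpsf2 stretch, at chr12:102003211-102003238 on the plus strand, spanned the stop codon with its GGAC at 4 nt, and that of Kmt2a, at chr9:44807856-44807883 on the minus strand, was in the 3′ UTR at 33 nt. Among the EB-only genes, Rasd1 (chr11:59963822-59963849, minus strand) and Arhgap6 (chrX:169302885-169302912, plus strand) carried theirs in coding sequence at -25 and -112 nt, and Ring1 (chr17:34021205-34021232, minus strand) in the 3′ UTR at 164 nt. Among the ESC-only genes, Efr3a (chr15:65871277-65871304, plus strand) and Insig1 (chr5:28076966-28076993, plus strand) carried theirs in the 3′ UTR at 33 and 160 nt, and Adamts5 (chr16:85862695-85862722, minus strand) in coding sequence at -98 nt. The Col5a1 stretch, chr2:28037087-28037114 on the plus strand, was in the 3′ UTR at 85 nt.

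The files hold positions and no score, count or p-value, so read depth is unknown and whether a peak is listed depends on how much of the transcript there is and on its methylation. List lengths ran from 12364 to 21509 peaks in the EB libraries, 2043 in the KO library and from 10515 to 19816 in the ESC libraries. Any mRNA peak was found for 8 to 10 of 12 ESC marker genes in EB libraries, for 8 in the KO library and for 8 to 10 in ESC libraries. For 18 markers of EB derivatives the counts were 9 to 14 in EB libraries, 0 in the KO library and 4 to 6 in ESC libraries, so ESC markers were still marked in the EB lists. For 8 fibroblast markers they were 3 to 6 in EB libraries, 0 in the KO library and 1 to 6 in ESC libraries. The part of cell mixture in the results was not tested. Mettl3 had no mRNA peak in any of the 7 libraries, so the peaks do not check the knockout label.

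Stop peaks were plentiful in every EB and ESC library and were nearly missing from the KO library. EB A, B and C had 3756, 4029 and 2836 stop peaks, the KO library had 17, and ESC A, B and C had 2247, 3880 and 3694. They made up 23.3%, 21.3% and 25.3% of mRNA peaks in EB A, B and C and 29.2%, 22.3% and 25.6% in ESC A, B and C, against 0.995% (Wilson 95% interval 0.622% to 1.59%) in the KO library. Such intervals cover counting error only. The KO share lay below all 6 others, with no replicate check.

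Counted in 25-nt bins per 1000 mRNAs long enough to reach the bin, peak centres were most frequent just after the stop codon. The densest bin ran from 25 to 49 nt in EB B and ESC C and from 50 to 74 nt in the other 4 EB and ESC libraries. It held 16.7, 18.1 and 13.0 centres per 1000 mRNAs in EB A, B and C and 10.4, 17.7 and 17.0 in ESC A, B and C. Over the 200 nt after the stop codon the mean per bin was 13.6 ± 2.19 in EBs and 13.2 ± 3.52 in ESCs (SD, n = 3 each), and over the 200 nt before it 8.38 ± 1.66 in EBs and 7.20 ± 2.05 in ESCs. Farther out, from 200 to 1000 nt on either side, it was 4.57 ± 1.29 before and 4.32 ± 0.916 after in EBs, and 3.50 ± 1.22 before and 4.42 ± 1.801 after in ESCs. The KO library had 0.0754 per bin over the 200 nt before and 0.0261 over the 200 nt after the stop codon, both under its 0.243 from 200 to 1000 nt into the coding sequence, and 0.0151 from 200 to 1000 nt into the 3′ UTR.

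**Figure D1:**
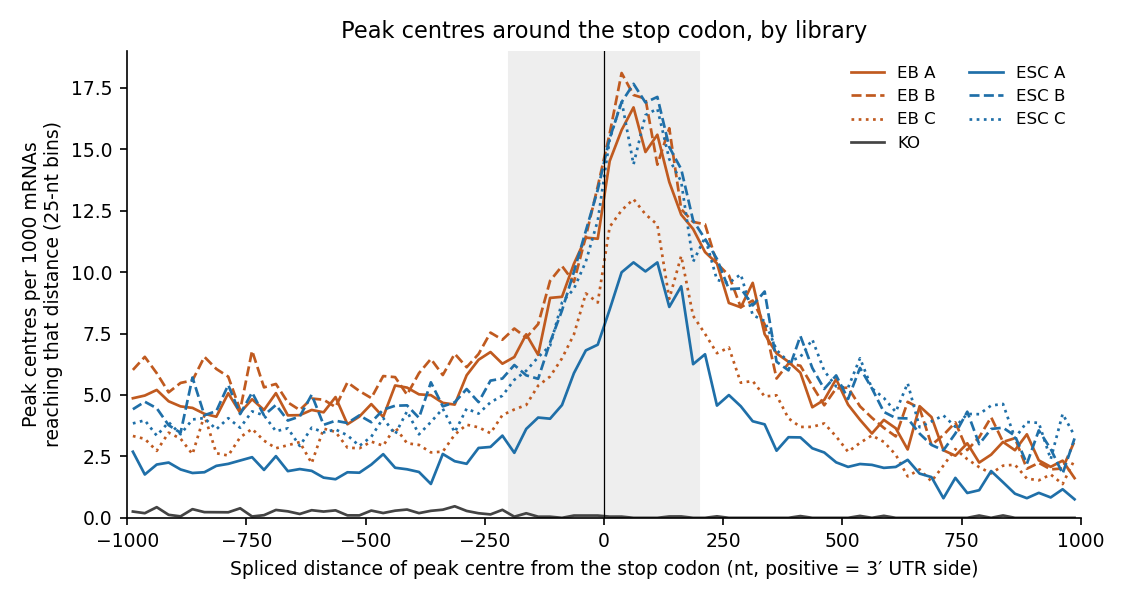
Peak centres per 1000 mRNAs in 25-nt bins (y axis) against spliced distance from the stop codon in nt (x axis), 1 line per library, with the 200-nt window shaded. The 6 EB and ESC lines peak between 25 and 74 nt after the stop codon, and the KO line does not pass 0.470.

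The window has no natural edge. In the 6 EB and ESC libraries 701 stop peaks were centred 191 to 200 nt from the stop codon, and 649 peaks 201 to 210 nt from it fell just outside. The start rule left out 92 peaks of these 6 libraries and 15 of the KO library that were otherwise in the window.

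The side of the stop codon on which a stop peak sat went with the amount of coding sequence in the last exon. A peak was placed only if its genomic centre lay in an exon, so a peak crossing the last intron could be left out. This limits the centres possible before the stop codon where the last exon has little coding sequence. Its part in these shares, and in the percentages of mRNAs below, was not tested. In mRNAs with 50 to 149 coding nt in the last exon, 15.4% ± 3.44 of stop peaks in EBs and 10.2% ± 2.99 in ESCs were centred before the stop codon, with median distances of 80.3 and 92.8 nt. With 150 to 399 coding nt the shares were 41.7% ± 0.505 and 37.9% ± 1.83. With 400 or more they were 67.1% ± 1.20 and 65.7% ± 4.08, and the median distances were -56.3 and -48.7 nt (SD, n = 3 each). In each of the 6 libraries the share was higher in each longer of these 3 classes. It lay between 6.76% and 18.4% at 50 to 149 nt and between 62.7% and 70.3% at 400 nt or more. The order did not extend to mRNAs with 0 to 49 coding nt in the last exon, where the share was 20.4% ± 8.36 in EBs and 15.3% ± 2.56 in ESCs (SD, n = 3 each) and in all 6 libraries higher than at 50 to 149 nt. In mRNAs of a single exon it was 59.3% ± 5.06 in EBs and 60.7% ± 2.29 in ESCs.

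The class of 150 to 399 coding nt also had the highest percentage of mRNAs with a stop peak, 23.5% ± 4.08 in EBs and 21.3% ± 5.16 in ESCs. With 400 or more it was 17.1% ± 2.46 and 16.9% ± 4.74, with 50 to 149 it was 13.7% ± 2.18 and 12.9% ± 3.65, and with 0 to 49 it was 6.996% ± 1.71 and 5.97% ± 1.98. Within each library the class of 150 to 399 nt was the highest.

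**Figure D2:**
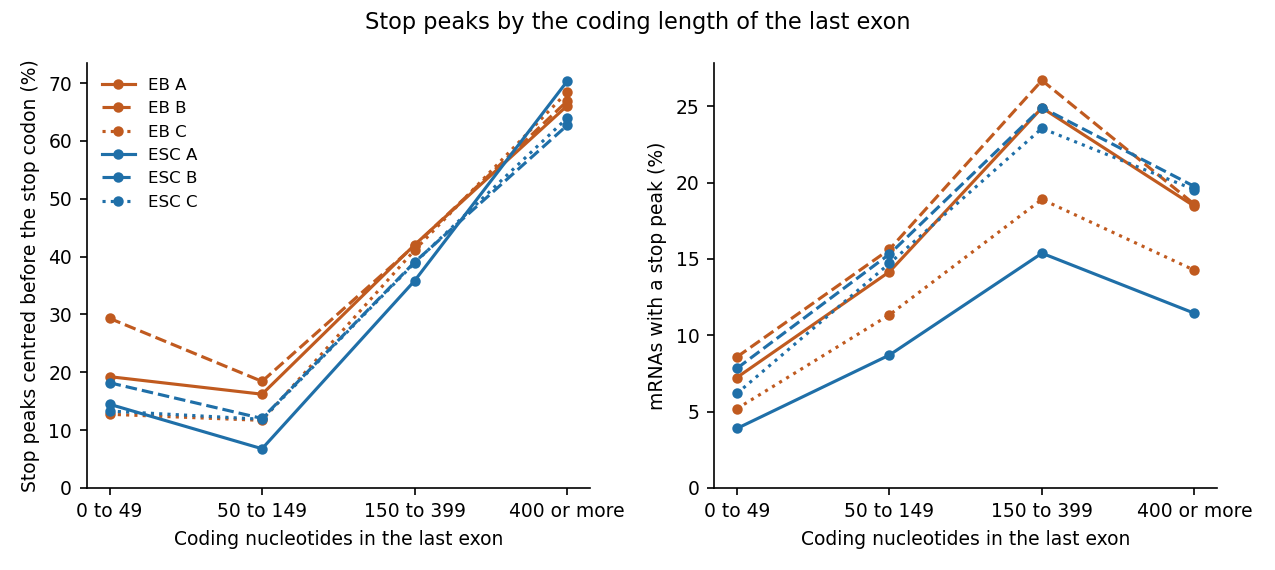
Left, percentage of stop peaks centred before the stop codon; right, percentage of mRNAs with a stop peak; both by coding nucleotides in the last exon (x axis), 1 line per EB or ESC library. The left-hand lines are lower at 50 to 149 nt, where they lie between 6.76% and 18.4%, than at 0 to 49 nt, and climb from there to between 62.7% and 70.3% at 400 nt or more, and each right-hand line is highest at 150 to 399 nt.

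Few stop peaks were centred outside the last exon: 155, 210 and 54 in EB A, B and C and 35, 85 and 72 in ESC A, B and C. Those of EBs held GGAC within 50 nt of their centre in 49.8% ± 5.30 of cases and those of ESCs in 66.2% ± 7.40, while inside the last exon the shares were 58.9% ± 2.90 and 60.4% ± 1.46 (SD, n = 3 each). EB A and EB B, the longest EB lists, had the most such peaks and the lowest GGAC shares, 45.2% and 48.6%. These 4 values were not tested.

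EBs and ESCs were compared on 6 measures of their stop peaks. In these bulk samples fewer cells of a type and less RNA per cell cannot be told apart. With 3 libraries against 3 the smallest p of the exact permutation test is 0.1, so no measure could pass 0.05. Stop peaks centred before the stop codon made up 41.2%, 41.4% and 39.5% in EB A, B and C, against 37.2%, 38.0% and 38.4% in ESC A, B and C. The groups did not overlap, and the difference of 2.86 percentage points had a 2-sided exact permutation p of 0.1 (0.3 after Benjamini-Hochberg adjustment over the 6 measures). The median distance was 28, 26 and 30 nt in EB A, B and C, against 39, 36 and 34 nt in ESC A, B and C. These did not overlap either, with a difference of -8.33 nt (exact permutation p 0.1, adjusted 0.3). Both differences depended on the window: with 100 nt they were 0.820 percentage points and -0.333 nt, for peaks overlapping the stop codon 0.924 points and -0.333 nt, and with 400 nt 3.72 points and -13.7 nt.

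The other 4 measures overlapped between the cell types. The share of mRNA peaks that were stop peaks averaged 23.3% ± 1.99 in EBs and 25.7% ± 3.41 in ESCs (n = 3 each; exact permutation p 0.4, adjusted 0.48). The GGAC share was 58.5% ± 3.10 in EBs and 60.5% ± 1.53 in ESCs (n = 3 each; exact p 0.4, adjusted 0.48), and the share inside the last exon 96.3% ± 1.69 and 98.1% ± 0.319 (n = 3 each; exact p 0.3, adjusted 0.48). The median width was 225, 227 and 214 bp in EB A, B and C and 274, 210 and 194.5 bp in ESC A, B and C (n = 3 each; exact p 1). ESC A, the shortest ESC list, had the widest stop peaks, and without it the width difference turned to 19.8 bp higher in EBs.

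Stop peaks differed from internal coding and deep 3′ UTR peaks of the same library in GGAC share, width and recurrence. The comparison was with internal coding peaks and with deep 3′ UTR peaks, which lie more than 200 nt from the stop codon. Differences were taken within each of the 6 EB and ESC libraries and tested with a 2-sided exact sign-flip permutation test, whose smallest p with 6 libraries is 0.031.

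GGAC was found 50 nt or less from the centre in 59.5% ± 2.43 of stop peaks, against 56.5% ± 3.01 of internal coding peaks and 54.0% ± 4.72 of deep 3′ UTR peaks (SD, n = 6). The differences were 2.96 ± 1.14 and 5.53 ± 3.25 percentage points, each in 6 of 6 libraries. Other 5′ UTR peaks were not part of the test, and held GGAC in 55.6% ± 3.32 of cases in EBs and 62.1% ± 4.52 in ESCs (SD, n = 3 each), above the stop peaks in ESC A and ESC C and below them in the other 4 libraries. The median width was 224 ± 27.1 bp for stop peaks, 210 ± 30.4 bp for internal coding peaks and 194 ± 30.1 bp for deep 3′ UTR peaks, and the differences were 13.9 ± 8.89 and 30.2 ± 7.79 bp, again in 6 of 6. Recurrence, the share overlapped in both other libraries of the cell type, was 64.5% ± 16.0 for stop peaks, 58.5% ± 18.5 for internal coding peaks and 52.5% ± 20.6 for deep 3′ UTR peaks. Its differences were 5.94 ± 3.11 and 11.98 ± 5.46 percentage points, in 6 of 6.

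All 6 differences had an exact permutation p of 0.031, also after Benjamini-Hochberg adjustment over the 6. The calls are tied to the settings: with the 10515 widest peaks of each library none stayed past 0.05 after adjustment, and the width difference against internal coding peaks was then 0.333 bp. With a window of 400 nt the GGAC difference against internal coding peaks was -0.239 percentage points, and with 100 nt the width differences were 2.17 and 7.33 bp. Recurrence moved with list length. It was 84.7% and 84.8% for stop peaks of EB C and ESC A, the shortest lists, and between 50.03% and 59.4% in the other 4 libraries.

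**Figure D3:**
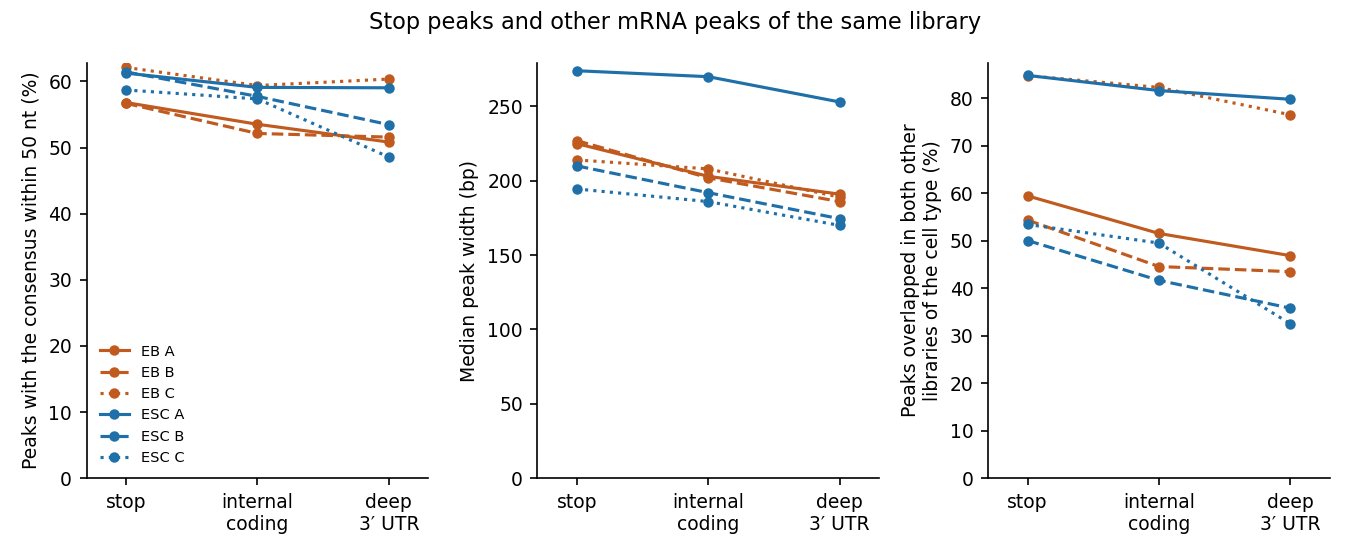
GGAC consensus share within 50 nt of the centre (left, %), median width (middle, bp) and recurrence in both other libraries of the cell type (right, %) for stop, internal coding and deep 3′ UTR peaks, 1 line per EB or ESC library. Every line is higher at stop peaks than at internal coding peaks and deep 3′ UTR peaks.

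GGAC was most frequent at the centres of the stop peaks, and its reverse complement GTCC was not. In 10-nt bins within 20 nt of the centre, GGAC started in 8.98% ± 0.871 of EB stop peaks per bin and in 9.29% ± 0.229 of ESC stop peaks (SD, n = 3 each). From -200 to -101 nt it was 5.58% ± 0.0746 and 5.51% ± 0.256, and from 100 to 199 nt it was 4.20% ± 0.173 and 3.94% ± 0.270. GTCC, the same letters read on the other strand, started in 3.21% ± 0.0876 of EB and 3.02% ± 0.112 of ESC stop peaks per bin near the centre and in 3.66% ± 0.154 and 3.75% ± 0.0378 from -200 to -101 nt. The 2 motifs cannot overlap each other, and a match is a description of sequence, not a methylated site.

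**Figure D4:**
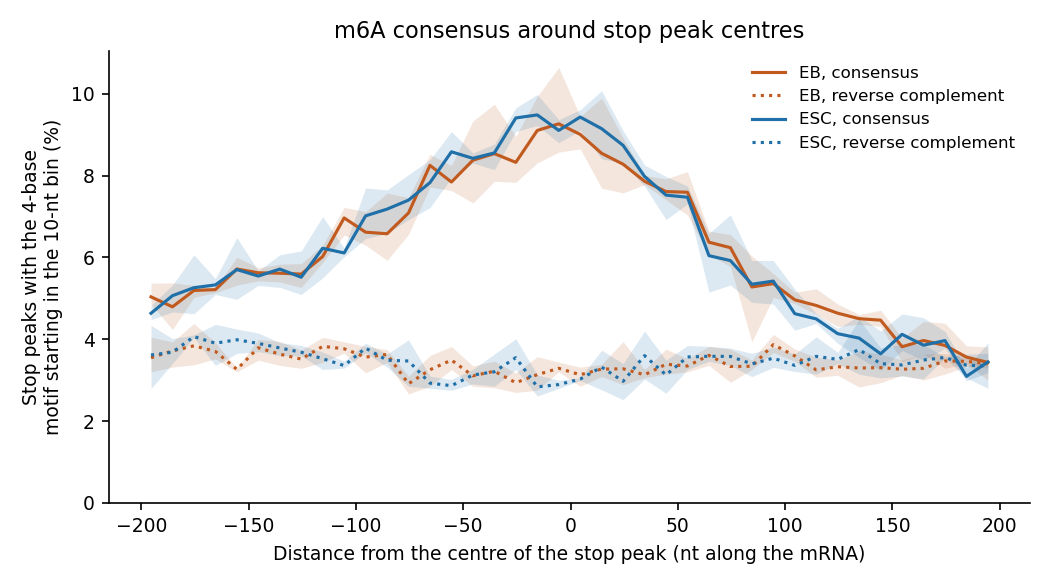
Percentage of stop peaks in which GGAC (solid) or its reverse complement (dotted) starts in each 10-nt bin (y axis) against distance from the peak centre in nt (x axis); lines are means and bands the range of 3 EB and 3 ESC libraries. The solid lines are highest near the centre, where they average 8.98% in EBs and 9.29% in ESCs, while the dotted lines dip there to 3.21% in EBs and 3.02% in ESCs.

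The share of stop peaks with GGAC differed with the base after it, each longer form being counted wherever it stood and so overlapping the GGAC counts. GGACT was found at most 50 nt from the centre in 25.9% ± 2.12 of EB and 28.0% ± 1.24 of ESC stop peaks, against 13.1% of same-length windows around the stop codons of 20188 canonical mRNAs. GGACA was found in 24.7% ± 1.54 and 25.1% ± 0.583, against 14.6% of windows, and GGACC in 18.6% ± 1.05 and 18.6% ± 1.34, against 12.5%. GGACG was the rarest, in 6.29% ± 0.405 and 6.40% ± 0.156, against 4.15% of windows, so each of the 4 forms was above its window share. AGACT, a weaker form of the motif, was found in 21.1% ± 1.29 and 21.7% ± 0.368, against 14.6%. TGACT was found in 17.3% ± 1.01 and 18.1% ± 0.393, against 12.8%. AAACT was near its window share, with 12.7% ± 0.959 in EBs and 12.8% ± 0.953 in ESCs against 12.2%. AGTCC, the reverse complement of GGACT, was found in 8.04% ± 0.266 and 8.23% ± 0.198, against 9.67% of windows.

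Genes with stop peaks in all 6 EB and ESC libraries had GGAC beside the stop codon more often than genes with mRNA peaks in all 6 and stop peaks in none. A stop peak was found in at least 1 of the 6 libraries for 6258 genes and in all 6 for 1230, which is 5.7% of the 21571 canonical mRNAs. A stop peak was found in all 3 EB libraries for 8.91% of canonical mRNAs and in all 3 ESC libraries for 7.7%. The 1230 were also 30.5% of the 4038 genes with an mRNA peak in all 6 libraries. The 1230 were set against 1068 genes with an mRNA peak in all 6 libraries and a stop peak in none, and motifs were sought in mRNAs that hold the whole 50 nt on both sides of the stop codon, 1227 of the 1230, 1044 of the 1068 and 20188 of all canonical mRNAs. GGAC lay within 50 nt of the stop codon in 56.7% of these 1227, in 35.3% of the 1044 and in 37.7% of the 20188. GGACT was there in 25.5%, 9.77% and 13.1%. GTCC was there in 25.4%, 29.8% and 28.6%. The median coding length of the last exon was 212 nt in the 1230 genes, 132 nt in the 1068 and 174 nt in all mRNAs, and the median 3′ UTR 1400, 1094 and 782 nt. The stop codon was TGA in 55.4%, 50.1% and 49.3%. These gene sets came from the peaks themselves and were not tested.

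Within a library, between 41.2% and 43.5% of genes with any mRNA peak in EBs and between 41.4% and 44.8% in ESCs had a stop peak. For 32.5% to 45.7% of the stop-peak genes of EB libraries and 33.6% to 59.0% of those of ESC libraries the stop peak was the sole mRNA peak. More than 1 stop peak was rare, in 40 to 163 genes of an EB library and 13 to 99 of an ESC library.

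The 12 genes of the 1230 with the widest stop peaks were Nup62, a nuclear pore protein, Hs6st1, a heparan sulfate 6-O-sulfotransferase, Ier2, an immediate-early gene, Eif1a, a translation initiation factor, Lifr, the receptor subunit for the LIF in the ESC medium, Sox2, Edem3, Ip6k1, Plekhf2, Txlna, Plekhg3 and BC003965. Width is the only size the files give and is not a methylation level. Nup62 had stop peaks of 1354, 1319 and 1228 bp in EB A, B and C, against 1266, 1246 and 1175 bp in ESC A, B and C, and the groups overlapped. Lifr had 1244, 1272 and 948 bp in EB A, B and C, against 890, 759 and 730 bp in ESC A, B and C, wider in every EB library. Among the 12, the same held for Ier2, Txlna, BC003965 and Sox2. Over all 1230 genes the median width averaged 322 bp in EBs and 287 bp in ESCs (exact permutation p 0.5, adjusted 0.6). How many of the 1230 separate in width is not given here, so no gene is called wider. Sox2, a core pluripotency factor, had 1178, 1292 and 1190 bp in EB A, B and C, against 1040, 491 and 599 bp in ESC A, B and C. Its EB peaks were centred at -183, -138 and -180 nt and its ESC peaks at -130, 20 and 74 nt, so the centre lay in coding sequence in all 3 EB libraries and near or after the stop codon in ESC B and C. The Sox2 stop peaks of ESC B and C lay wholly inside those of all 3 EB libraries. A further Sox2 mRNA peak was listed in 2 ESC libraries and in no EB library. Whether 1 wide region was listed as separate peaks there was not tested. Hs6st1 had all 6 centres in coding sequence, at -63, -27 and -60 nt in EB A, B and C and -45, -8 and -149 nt in ESC A, B and C.

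The place of a recurrent stop peak varied between libraries. Of the 1230 genes, 1100 had exactly 1 stop peak in each library. The median SD of their centres was 27.4 nt within EBs and 23.3 nt within ESCs, and the median EB minus ESC difference was -2.67 nt. In 65.6% of the 1100 the centre lay on the same side of the stop codon in all 6 libraries: before it in 19.7% and at or after it in 45.9%. The 3 EB centres all lay farther 5′ than the 3 ESC centres in 72 genes, which is 6.55% of the 1100, and all farther 3′ in 51 genes, 4.64%. Together these were 123 genes, 11.2%. Random order alone separates 3 values from 3 in 1 direction or the other with a probability of 0.1. The share is near that, so no gene is called moved. Ppp2r2a, a regulatory subunit of protein phosphatase 2A, had centres at -85, -94 and -55 nt in EB A, B and C, against 190, 133 and 98 nt in ESC A, B and C. Prdm1, a transcriptional repressor that acts in germ cell and B cell differentiation, went the other way. Its centres lay at 84, 34 and 67 nt in EB A, B and C, against -114, -145 and -57 nt in ESC A, B and C. In both genes the EB and ESC centres lay on opposite sides of the stop codon, and both were named after their values were seen.

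Stop peaks were also counted in lists of genes grouped by function. No enrichment was tested. The lists are described by counts beside the 5.7% of all canonical mRNAs with a stop peak in all 6 libraries, and beside the 30.5% among genes with an mRNA peak in all 6. Of 18 cleavage and polyadenylation genes, whose products cut the 3′ end of mRNAs, 6 had a stop peak in all 6 libraries, which is 33.3% of the list and 54.5% of its 11 members with an mRNA peak in all 6. They were Cpsf2, Cpsf4, Wdr33, Cstf1, Cstf3 and Papola, the poly(A) polymerase, while 8 of the 18 had no stop peak in any of the 6. Cstf1, a subunit of the cleavage stimulation factor, had stop peaks of 637, 743 and 611 bp in EB A, B and C and 596, 636 and 569 bp in ESC A, B and C, centred between -11 and 100 nt. Cpsf2 had narrower ones, 212, 222 and 173 bp in EB A, B and C and 220, 230 and 243 bp in ESC A, B and C, over the GGAC printed above.

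Of 28 Polycomb and Trithorax genes, which encode the opposing histone-modifying complexes of developmental genes, 8 had a stop peak in all 6 libraries, 28.6% of the list and 50% of its 16 members with an mRNA peak in all 6. They were Suz12, Mtf2, Pcgf2, Pcgf5, Cbx2, Phc1, Kmt2a and Kmt2d, while 11 of the 28 had no stop peak in any of the 6. Suz12, a core subunit of Polycomb complex PRC2, had stop peaks of 562, 561 and 447 bp in EB A, B and C and 608, 471 and 439 bp in ESC A, B and C. All 6 were centred before the stop codon, at -46, -55 and -74 nt in EBs and -39, -78 and -78 nt in ESCs. Kmt2a, a histone H3K4 methyltransferase, had them within 50 nt of the stop codon in every library, at 13, 15 and -4 nt in EB A, B and C and 13, 6 and 47 nt in ESC A, B and C. Ring1, a ubiquitin ligase of PRC1, was the list's only member called in EBs alone.

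Some naive pluripotency genes had stop peaks in the EB lists as well, 7 of the 20 members in each EB library. Of 20 members, 4 had one in all 6 libraries: Nanog, Esrrb, Klf2 and Klf4, transcription factors of the naive state. They were 20% of the list and 33.3% of its 12 members with an mRNA peak in all 6, near the 30.5% of all such genes. No stop peak in any of the 6 was found for 10 of the 20. Nanog had stop peaks of 513, 451 and 418 bp in EB A, B and C and 463, 460 and 386 bp in ESC A, B and C, and all were centred in coding sequence between -167 and -131 nt. Klf2 had 527, 527 and 478 bp in EB A, B and C and 501, 490 and 459 bp in ESC A, B and C, all in the 3′ UTR between 94 and 122 nt. Of 18 core and primed pluripotency genes, 4 had a stop peak in all 6 libraries: Sox2, Pou3f1, Foxd3 and Nodal. They were 22.2% of the list and 57.1% of its 7 members with an mRNA peak in all 6, and 6 of the 18 had no stop peak in any of the 6. These peaks give no level of expression.

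The machinery of m6A itself was mixed. Of 8 writer genes 1 had a stop peak in all 6 libraries, Cbll1, a ubiquitin ligase of the writer complex. Its peaks were centred in coding sequence between -188 and -35 nt. Zc3h13 had one in 3 EB and 2 ESC libraries, and Rbm15b in 2 of each. Of 12 reader and eraser genes 1 did, Ythdf3, and its paralog Ythdf2 had one in 3 EB and 2 ESC libraries. Of 8 genes of S-adenosylmethionine supply, the methyl donor, 1 did, Mtrr. Mtr and Mat2b each had one in 3 EB and 2 ESC libraries. Genes with a stop peak in all 6 libraries were 16.7% of the 6 writer genes with an mRNA peak in all 6. For readers and erasers they were 14.3% of 7, and for supply genes 50% of 2. No stop peak in any of the 6 was found for 3 writer, 7 reader and eraser and 3 supply genes.

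Of 74 cytosolic ribosomal protein genes none had a stop peak in all 6 libraries, and 72 had no stop peak in any of the 6. None of the 74 had an mRNA peak of any kind in all 6. Among the 21571 canonical mRNAs, 15313 had no stop peak in any of the 6. None of 19 matched deadenylation and decapping genes had one in all 6, while 3 of the 19 had one in all 3 EB libraries, 15.8% against the 8.91% of all canonical mRNAs, and 11 had none in any of the 6. Of 30 glycolysis and respiration genes 1 did, Hk2, a hexokinase. None of the 20 endoderm, 20 mesoderm and heart or 20 neural genes did, and 2 of the endoderm genes, 10%, had one in all 3 EB libraries. No stop peak in any of the 6 libraries was found for 13 endoderm, 13 mesoderm and heart and 16 neural genes. An mRNA peak of any kind in all 6 was found for 2 endoderm, 1 mesoderm and heart and 4 neural genes. It was found for 7 deadenylation and decapping genes and for 2 glycolysis and respiration genes. Gata4, an endoderm and heart factor, had stop peaks of 402, 439 and 357 bp in EB A, B and C, against 117 and 290 bp in ESC B and C and none in ESC A. Foxa2, a factor of endoderm, had them in 3 EB libraries and in ESC C.

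**Figure D5:**
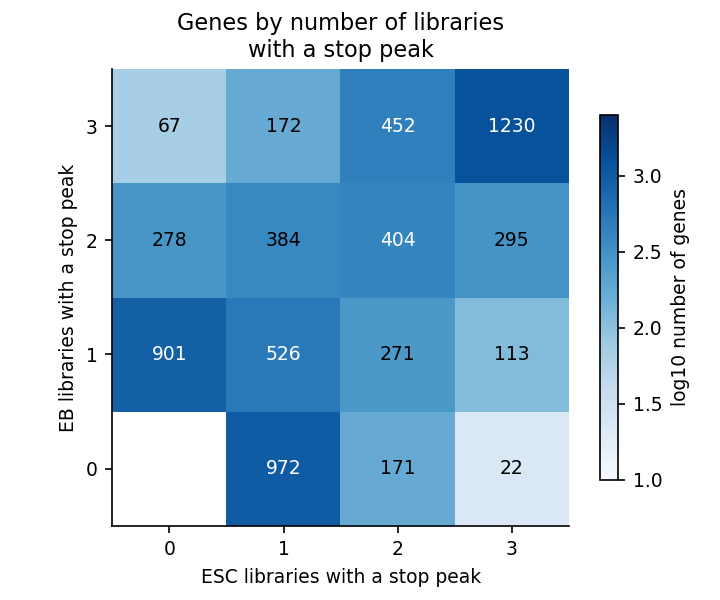
Number of genes by how many of the 3 EB libraries (y axis) and how many of the 3 ESC libraries (x axis) had a stop peak, with colour on a log10 scale. The corner of 3 and 3 holds 1230 genes, and the corners of 3 in 1 type and 0 in the other hold 67 for EBs and 22 for ESCs.

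A stop peak in all 3 libraries of 1 cell type and none of the other was rare. It was found for 67 genes in EBs only, 1.07% of the 6258, and for 22 in ESCs only, 0.352%. The EB-only share was 1.42% for internal coding peaks, 0.667% for deep 3′ UTR peaks and 0.89% for peaks near transcript starts, and the ESC-only share 0.165%, 0.388% and 0.244%, so stop peaks lay within the range of the other parts of mRNAs. For any mRNA peak the shares were 0.86% and 0.215%. Genes with a stop peak in a single library were far more frequent, 901 in EBs and 972 in ESCs. The calls need every library: with any 1 left out the EB-only count ran from 87 to 270, highest without EB C, and the ESC-only count from 46 to 143, highest without ESC A. Each library but ESC A moved the EB-only count by over 1.5 times, and each of the 6 the ESC-only count. With at least 2 of 3 against 0 of 3 the counts were 345 and 193, which are 5.51% and 3.08%. Expression of these genes was not measured by the files.

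Many of the widest EB-only stop peaks overlapped a peak of ESCs. The 12 widest belonged to Med20, Fut8, Kat2a, Tenm4, Zfp518a, Neo1, Rasd1, Csnk1d, Rab43, Tradd, Egr1 and Arhgap6. For 5 of them, Med20, a Mediator subunit, Kat2a, a histone acetyltransferase, Tenm4, a teneurin, Neo1, a netrin receptor, and Csnk1d, a casein kinase, a peak of all 3 ESC libraries overlapped the EB stop peak but was not centred in the window. Kat2a's EB peaks were centred at 184, 130 and 194 nt and those of Csnk1d at 171, 187 and 169 nt, near the window's edge. Over all 67 genes, 49 had no ESC peak overlapping their EB stop peaks, and over the 22 ESC-only genes 15 had no overlapping EB peak, a count chosen after seeing the data. Of the 49, 29 had another mRNA peak in at least 1 ESC library and 20 had none.

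Of the 12, 3 had no overlapping ESC peak. Rasd1, a Ras-like protein induced by glucocorticoids, had stop peaks of 429, 725 and 119 bp in EB A, B and C and no mRNA peak in any ESC library. Arhgap6, a GTPase-activating protein, had 322, 459 and 228 bp, also with no ESC mRNA peak. Egr1, an immediate-early transcription factor, had 430, 397 and 206 bp, with an mRNA peak elsewhere in 1 ESC library. Chosen after their values were seen, others among the 49 were Rora, a nuclear receptor (342, 328 and 230 bp), Sema3a, a secreted guidance cue (207, 311 and 267 bp), Frzb, a secreted Wnt antagonist (270, 225 and 196 bp), and Cyp26a1, which degrades retinoic acid (212, 175 and 114 bp), all with no mRNA peak in any ESC library. Mmp14, a membrane-bound matrix protease, and Ets1, a transcription factor, had an mRNA peak elsewhere in 2 ESC libraries. Ring1 had stop peaks of 136, 181 and 191 bp in EB A, B and C and an mRNA peak elsewhere in 1 ESC library.

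The ESC-only stop peaks had a median mean width of 188 bp, and the EB-only ones 203 bp. The 12 widest ESC-only stop peaks belonged to Zfp623, Ccdc134, Wrb, E130308A19Rik, Efr3a, Krba1, Insig1, Ffar3, Adamts5, Adap2, Cd3eap and Zfp952, and for 4 of them, Zfp623, Ccdc134, E130308A19Rik and Krba1, a peak of all 3 EB libraries overlapped the ESC stop peak. Efr3a, which anchors a lipid kinase at the plasma membrane, had stop peaks of 276, 184 and 217 bp in ESC A, B and C, centred at 55, 30 and 68 nt, and no mRNA peak in any EB library. Insig1, a sterol sensor of the endoplasmic reticulum, had 179, 222 and 237 bp at 118, 146 and 154 nt, and mRNA peaks elsewhere in all 3 EB libraries. Adamts5, a secreted protease of cartilage matrix, had 142, 225 and 226 bp at -176, -118 and -108 nt.

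The KO library had almost none of the stop peaks found in ESCs. It listed 17 stop peaks, in 17 genes, 0.0788% of the canonical mRNAs, and none lay in the 1660 genes with a stop peak in all 3 ESC libraries, which are 7.7% of canonical mRNAs. Of those 1660 genes, 273 did have an mRNA peak in the KO library, 228 of them near the transcript start. For these 273 genes the KO list held a peak of the transcript but none classed as a stop peak. The class goes by the peak centre, and KO peaks did overlap the ESC stop peaks of Tma7 and Tmsb4x. The library had 1 replicate and the shortest list, and genotype and list length cannot be told apart.

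Peaks of the KO library overlapped 0.356%, 0.232% and 0.135% of the stop peaks of ESC A, B and C, a mean of 0.241% ± 0.111 (SD, n = 3). They overlapped 36.8% ± 9.81 of ESC peaks near transcript starts, 1.44% ± 0.465 of internal coding peaks and 0.197% ± 0.0702 of deep 3′ UTR peaks. Stop and deep 3′ UTR peaks thus lay at the low end, and peaks near starts, which made up 79.7% of the KO library's mRNA peaks, at the high end. The overlapped ESC stop peaks lay in 12 genes, among them Tma7 and Tmsb4x, an actin-binding peptide, in all 3 ESC libraries.

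The 17 KO stop peaks were mostly on the coding side, a lean shared by the library's other peaks. It listed 180 internal coding peaks and 15 deep 3′ UTR peaks. Their median width of 96 bp was like that of the library's other mRNA peaks, which had medians of 95 to 100 bp by class, and 13 of 17 were centred before the stop codon, 5 lay outside the last exon and 7 lay within 400 nt of the transcript start. GGAC was within 50 nt of the centre of 6 of 17, 35.3% (Wilson 95% interval 17.3% to 58.7%), and GGACT of 5.88%. They belonged to 1810037I17Rik, 1810049J17Rik, Anp32e, Cks2, Col5a1, Col6a1, Dync1li1, Gm10300, Mat2a, Mt3, Pfdn4, Sftpb, Tceal8, Tomm6, Uqcr10, Uqcrb and Utp14a. The peak of Uqcr10, a subunit of respiratory complex III, lay at 243 nt from the start of an mRNA of 434 nt. Of the 17 peaks, 8 overlapped a peak of at least 1 ESC library, none overlapped all 3 ESC libraries, and 11 overlapped some EB or ESC library. The same share is not given here for the other KO peaks, so these counts do not set the stop peaks apart. Col5a1, a fibrillar collagen, had a KO peak of 78 bp centred at 167 nt that overlapped peaks in EB A, B and C and in ESC A and B. Col6a1, another collagen, had one of 231 bp at -41 nt that overlapped peaks in EB A, B and C and in ESC B and C. Mat2a, an S-adenosylmethionine synthetase, had a KO peak of 77 bp at 30 nt that overlapped EB C alone.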

How the data were processed

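The deposited files give peak positions in mm10 for 7 enriched libraries and 3 final lists, with no score, count, p-value or depth. Per the submitters' processing notes, the authors used CASAVA 1.8.2, TopHat2 2.0.10 and MACS 1.4.1, with no role or threshold stated. Peaks of the 7 libraries were called per library. Library and group came from the sample titles.

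Each peak centre was placed on the canonical mRNA of its gene (GENCODE M21 basic set, best APPRIS rank, then longest coding sequence; 21571 mRNAs), without strand, since the files give none, so overlapping genes can share a peak. Overlap meant at least 1 bp. GGAC was sought within 50 nt of the centre on the mRNA strand. Libraries were the replicates, with exact permutation tests and Benjamini-Hochberg adjustment over each family of 6. The placement was tested on simulated data: 99.3% of 12000 planted peaks, all centred in exons, were placed as planted. Peaks centred in introns were not placed. Named genes were the widest of each call, all KO genes and list members. The list of translation termination genes is not reported here. Members and lists were chosen with earlier results of these data known. Alternatives changed the window, start rule, transcript choice, motif and libraries. Python 3.11.15, NumPy 2.4.6, SciPy 1.17.1 and matplotlib 3.10.9 were used.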

Additional observations from a re-analysis of the deposited data

Results flagged for a closer look

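The fibroblast (MEF) final list of the authors was used in none of the comparisons above, and it carries the same kind of signal: 26.5% of its 9535 mRNA peaks were stop peaks, against 0.995% in the KO library. The authors' final lists of EBs and ESCs had 27.3% and 27.7%. The rule by which libraries were joined was not used here, and the MEF value has no replicate error. The KO value comes from a single-library list and the MEF value from a final list, so the 2 also differ in kind of list. Single EB and ESC libraries averaged 23.3% and 25.7%, below their final lists.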

How the results depend on the processing

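Of the EB minus ESC results, the share of stop peaks, the share before the stop codon, the distance, the GGAC share and the last-exon share kept their direction under every alternative run. With any 1 library left out they ran from -4.04 to -0.639 points, 2.51 to 3.44 points, -9.50 to -7.00 nt, -3.72 to -1.01 points and -2.77 to -1.12 points. Their size depended on the setting: over the other alternatives they ran from -2.48 to -1.24 points, 0.820 to 3.72 points, -13.7 to -0.333 nt, -2.08 to -1.07 points and -3.42 to -0.208 points, with the distance at -0.333 nt (exact permutation p 1) both at 100 nt and for peaks overlapping the stop codon, and -3.33 nt in genes with a stop peak in all 6 libraries. The median width, -4.17 bp, changed sign: it ran from -20 to 19.8 bp with 1 library left out (19.8 without ESC replicate A) and was 35.2 bp in genes with a stop peak in all 6 libraries, 36.8 bp for peaks overlapping the stop codon, 23.7 bp for the widest peaks and 0.333 bp for peaks centred in the last exon. The all-6 and last-exon settings were chosen after seeing the data.

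For stop peaks minus other peaks, any 5 libraries gave differences of 2.64 to 3.28 and 4.61 to 6.28 points (GGAC, against internal coding and deep 3′ UTR peaks), 11.7 to 15.9 and 28.0 to 32.0 bp (width) and 5.18 to 6.64 and 10.2 to 13.4 points (recurrence), and none could pass, since 5 libraries allow no exact permutation p below 0.0625. With the widest peaks the differences were 2.45 and 5.06 points, 0.333 and 17.5 bp, and 3.38 and 9.76 points, none past 0.05 after adjustment. The 400-nt window gave GGAC differences of -0.239 and 2.83 points, GGACT gave 1.54 points against deep 3′ UTR peaks, and the 100-nt window gave width differences of 2.17 and 7.33 bp, again not past 0.05. Causes were not tested.

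With 1 library left out, EB-only genes ran from 87 to 270 and ESC-only genes from 46 to 143, where fewer libraries have to agree. At least 2 of 3 against 0 of 3 gave 345 and 193, and without overlapping peaks of the other type they were 49 and 15. KO stop peaks numbered 32 with peaks near starts kept, 8 at 100 nt and 66 at 400 nt, and the overlapped share of ESC stop peaks was then 0.398%, 0.115% and 0.419%, with 0.184% to 0.294% when 1 ESC library was left out.

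The labels do not say that the replicate letters mark a shared culture, so the libraries were not paired. The deviations of same-lettered EB and ESC libraries correlated at 0.000648, 0.0416 and 0.0679 for A, B and C over 6258 genes. Those of differently lettered libraries correlated at -0.0615 to 0.0212. All were small, and the values for B and C were the highest of all pairs. With the replicate letter as a block the share before the stop codon still differed by 2.86 points and the distance by -8.33 nt (exact permutation p 0.25, the smallest possible), and no call changed.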

Other observations

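In the MEF final list 2485 genes had a stop peak, and 979 of them were among the 1230 genes with one in all 6 EB and ESC libraries. A stop peak in none of those 6 libraries was found for 154 MEF genes, of which 25 had no mRNA peak at all in them. Rnf123, a ubiquitin ligase, and Tbx15, a transcription factor of mesenchyme and skeleton, were among these 25, with MEF peaks of 424 and 345 bp centred at 186 and -114 nt. Others of the 154 lay at the window's edge, such as Pias4 at 200 nt and Stau1 at 199 nt. Both of these had an mRNA peak in all 3 EB and all 3 ESC libraries. All 4 genes were named after their values were seen. MEF stop peaks held GGAC within 50 nt of the centre in 60.3% of cases, and their median distance was 27 nt.

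Stop peaks passed into the authors' final lists more often than other mRNA peaks of the same library. The final list of the cell type overlapped 67.0% ± 16.7 of EB stop peaks and 78.8% ± 10.2 of ESC stop peaks, against 60.9% ± 19.6 and 74.8% ± 13.0 of internal coding peaks and 57.8% ± 17.2 and 66.6% ± 18.3 of deep 3′ UTR peaks (SD, n = 3 each). In each of the 6 libraries the stop peaks had the highest of the 3 shares. This was not tested, and the lists derive from the same libraries.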
